A study of Mus musculus with 4 samples.

Results

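Gamma cells, the islet cells that make pancreatic polypeptide, were taken from single-cell libraries of mouse pancreatic islets as barcodes in which Ppy, the gene of that hormone, made up at least 5% of all unique molecular identifiers (UMIs, each counting 1 captured RNA molecule). Quality limits removed barcodes with fewer than 1000 UMIs, fewer than 500 genes or more than 20% of their UMIs from mitochondrial genes. Glucagon (Gcg) and somatostatin (Sst) each had to stay under 5%, and the insulin genes Ins1 and Ins2 together under 15%. The rule found 289 gamma barcodes among 20845 barcodes that passed the quality limits. The measured shares of these hormone genes chose the members, so those shares are a description and support nothing.

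Pancreatic polypeptide is a short peptide of the neuropeptide Y family that is released after meals under vagal control and slows digestion. Its relative peptide YY, encoded by Pyy, is made in gut endocrine cells and in several islet cell types. Gamma cells are a minority of islet endocrine cells and are concentrated in the head of the pancreas, so their number in an islet preparation also depends on which part of the organ it came from.

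The study sequenced 4 droplet libraries, 1 per group. They came from normal control mice at 98 days, early db/db mice at 70 days, late db/db mice at 98 days and, under an intervention, further late db/db mice at 98 days, and are called the control, early, late and intervention libraries. db/db mice lack a working leptin receptor and become obese and diabetic. The labels give the genotype db/db (C57BL/KsJ) for all 4 libraries, the normal control included, while the growth protocol names male C57BL/6 mice beside C57BL/ksJ-db mice. Diabetic mice were allocated to groups at random once hyperglycaemic, per the labels' protocols. The deposited file of the library labelled early db/db carries a name like that of a control, and the label was followed here. The labels do not describe the intervention or the number of mice behind a library. Strain, disease state, library preparation and sequencing run therefore cannot be told apart between the groups. Age adds to this for the early library, at 70 days beside 98 days for the others. With 1 library per group, ratios between groups have no replicate check, and their intervals cover counting error only.

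Before the quality limits the libraries held 6143 to 7162 barcodes and 120934779 to 166034254 UMIs. The median depth of the barcodes that passed was 26469 UMIs in normal control, 14993 in the early library, 6428 in the late and 26842 in the intervention library. Any pair of libraries shared 8 to 21 barcode sequences. Gamma barcodes differed less in depth, with a median of 26911 UMIs in normal control, 21531 in the early library, 29955 in the late and 14221 in the intervention library. Expression is given below in CPM, which scales counts to a total of 1000000, over the UMIs left after setting aside mitochondrial genes and 7 hormone genes (those of insulin, amylin, glucagon, somatostatin, pancreatic polypeptide and peptide YY).

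Ppy and Pyy lie next to each other on mouse chromosome 11, both on the minus strand. Ppy (ENSMUSG00000017316) spans chr11:102099930-102101319 and Pyy (ENSMUSG00000017311) spans chr11:102106676-102107832 in the mm10 annotation, with 5356 bases and no other measured gene between them. The 250 bases before each transcription start are shown because the 2 neighbours were the leading hormone RNAs of the gamma barcodes. They come from RefSeq (GRCm38.p6), at chr11:102101320-102101569 for Ppy and chr11:102107833-102108082 for the outer of 2 annotated Pyy starts, minus strand, written 5′ to 3′. Capitals mark TATAAA, the letters of a TATA box, and TGCTGA, the core letters of the element that Maf factors bind.
Ppy: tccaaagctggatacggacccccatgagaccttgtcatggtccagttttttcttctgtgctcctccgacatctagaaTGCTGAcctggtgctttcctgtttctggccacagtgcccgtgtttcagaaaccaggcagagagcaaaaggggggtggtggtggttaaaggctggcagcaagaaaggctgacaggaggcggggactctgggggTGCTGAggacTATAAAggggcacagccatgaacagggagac
Pyy: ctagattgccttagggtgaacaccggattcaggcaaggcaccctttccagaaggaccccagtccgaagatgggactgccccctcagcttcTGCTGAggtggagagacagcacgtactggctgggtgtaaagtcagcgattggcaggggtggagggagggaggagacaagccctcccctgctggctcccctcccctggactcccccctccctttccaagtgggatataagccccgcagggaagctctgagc

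Both strands were searched, and the matches do not overlap. The Ppy window held TATAAA at bases 31 to 26 before the start and TGCTGA at bases 173 to 168 and 41 to 36. The Pyy window held TGCTGA at bases 160 to 155 and no TATAAA. Among 32851 RefSeq windows of the same length, 12.4% held TATAAA and 16.1% held TGCTGA, so neither match is rare. Of 5 further motifs, found in neither window, TAATTA of homeodomain factors occurred in 4.84% of all windows and the E-box letters CAGCTG in 13% of them. The other E-box searched, CATCTG, occurred in 14.4%, the cyclic AMP response element TGACGTCA in 1.55% and the forkhead letters TGTTTAC in 3.17%.

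Ppy was the leading RNA of the typical gamma barcode in every library. Its share ran from 5.35% through a median of 39.6% to 58.1% in normal control, from 5.43% through 46.6% to 62.6% in the early library, from 5.29% through 36.0% to 53.1% in the late and from 6.07% through 37.8% to 53.1% in the intervention library. The 4 ranges overlap almost completely. Most members lay far above the limit of 5%, since Ppy was at least 20% in 49 of 59, 84 of 95, 37 of 47 and 72 of 88 gamma barcodes in the same order. The nearest barcodes outside the limit had 4.88%, 4.996%, 4.92% and 4.67% Ppy.

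Pyy accompanied Ppy in nearly every gamma barcode. Its median share was 11.0% in normal control, 12.8% in the early library, 14.6% in the late and 13.2% in the intervention library. Pyy was under 1% in 2, 4, 0 and 4 gamma barcodes of these libraries and exceeded Ppy in 8, 8, 4 and 4. Endothelial barcodes, which should hold only free RNA of these genes, had median Ppy shares of 0.0233%, 0.0101%, 0.0157% and 0.0736% and median Pyy shares of 0.0151%, 0.0107%, 0.00783% and 0.0658%.

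**Figure D1:**
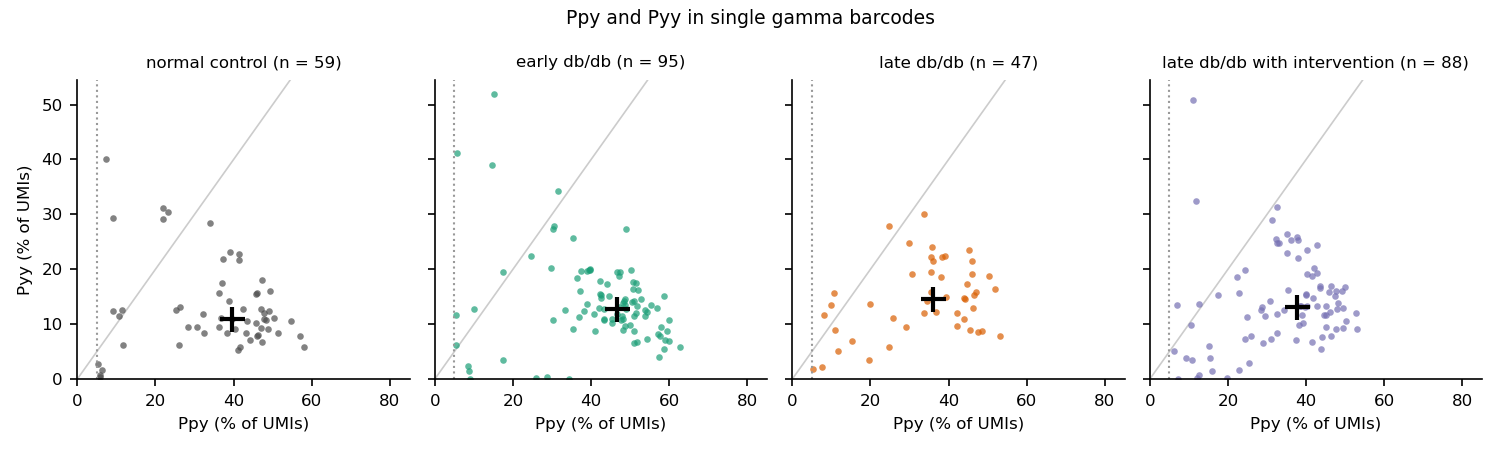
Each point is 1 gamma barcode, with Ppy on the x axis and Pyy on the y axis as percent of all its UMIs, in 1 panel per library; the cross is the median, the dotted line the limit of 5% Ppy and the grey line equal shares. Most barcodes form a cloud around 36.0% to 46.6% Ppy and 11.0% to 14.6% Pyy. Barcodes with little Ppy are scattered in Pyy. They run from 0.0223% Pyy, in the intervention library, to 51.9%, in the early library, and only a few have high Pyy.

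At the median the other islet hormones were low in the gamma barcodes, and the rule limited glucagon, somatostatin and insulin in each of them. Median Gcg was 0.104%, 0.0340%, 0.0208% and 0.0922% in the control, early, late and intervention libraries. Amylin (Iapp), on which the rule placed no limit, had medians of 0.0785%, 0.0612%, 0.118% and 0.569%. In endothelial barcodes median Iapp was 0.129%, 0.0822%, 0.136% and 1.53%, so the gamma medians were not above that level in any of the 4 libraries. Some members held more of another hormone. Gcg was at least 1% in 5, 18, 5 and 10 gamma barcodes and Sst in 7, 3, 2 and 3. The highest Iapp share was 9.43%, 11.2%, 9.77% and 17.8%. The highest share of Ins1 and Ins2 together was 5.66%, 11.5%, 13.7% and 13.9%. In all, 280, 406, 114 and 291 barcodes held at least 5% Ppy. Of them 46, 208, 39 and 124 failed on Gcg and 169, 92, 25 and 70 on Sst, and a barcode could fail on more than 1 limit.

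Alpha barcodes, defined by at least 10% Gcg with no limit on the other hormones, carried less Ppy and Pyy than gamma barcodes at the median. Their median Ppy share was 0.0461% in normal control, 1.23% in the early library, 1.74% in the late and 1.54% in the intervention library. Their median Pyy share was 0.752%, 6.59%, 6.05% and 3.99% in the same order. The lowest alpha median in the db/db libraries was thus well above the normal control's for both genes. The gamma medians of Ppy, 36.0% to 46.6%, cannot be set against this, since the rule chose gamma barcodes by Ppy.

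Gamma barcodes were 1.54% (exact Clopper-Pearson 95% interval 1.18 to 1.99) of the alpha, beta, delta and gamma barcodes in normal control, 59 of 3821. They were 3.69% (2.99 to 4.49) in early db/db, 95 of 2576, and 4.75% (3.51 to 6.27) in late db/db, 47 of 989. With the intervention the share was 2.29% (1.84 to 2.81), 88 of 3844. The intervals of early and late db/db lay above that of normal control and above that of the intervention library. The order changed with the denominator. Of all barcodes past the quality limits, gamma barcodes were 1.27% (0.972 to 1.64), 1.98% (1.60 to 2.41), 0.746% (0.549 to 0.991) and 1.72% (1.38 to 2.12), which puts late db/db lowest. This denominator adds the barcodes outside the 4 hormone classes. They numbered 808 in the control, 2224 in the early, 5312 in the late and 1271 in the intervention library. Among barcodes with at least 5000 UMIs the early share was 2.48%. The late share was then 1.16% (0.851 to 1.54) and the control share 1.30% (0.986 to 1.69), with overlapping intervals. Late db/db had the fewest hormone-rich barcodes of any library, with 699 beta and 150 alpha barcodes against 2384 and 1104 in normal control. How far fewer beta and alpha barcodes, the part of the pancreas sampled or cell recovery set these shares was not tested.

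**Figure D2:**
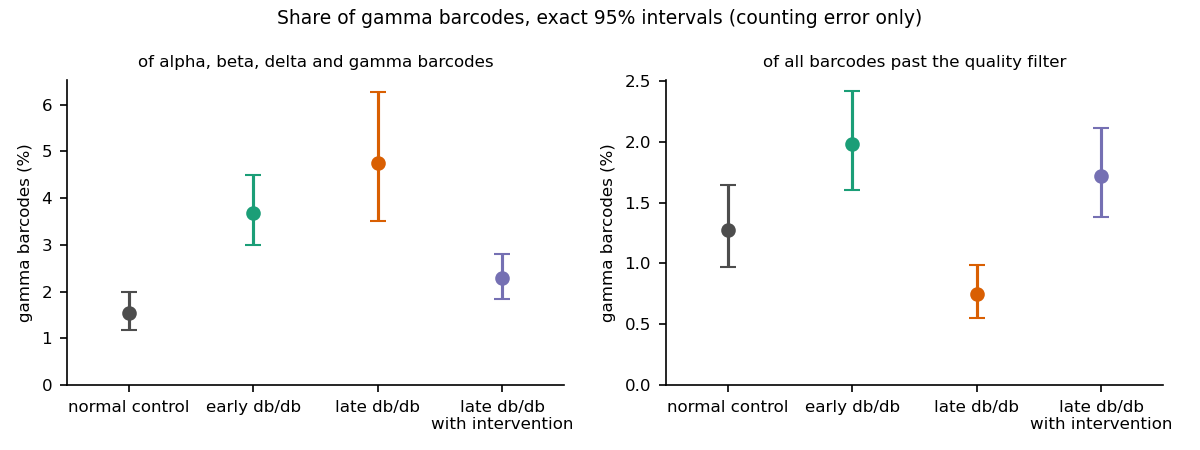
Gamma barcodes as percent of the alpha, beta, delta and gamma barcodes (left) and of all barcodes past the quality filter (right), 1 point per library with its exact 95% interval. Late db/db is highest on the left at 4.75% and lowest on the right at 0.746%.

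The gamma and alpha barcodes of each library were then compared, with UMIs summed per class and library and the library kept as a block (edgeR quasi-likelihood test, Benjamini-Hochberg adjustment, threshold 0.05). The 4 libraries act as 4 pairs, and nothing in the labels says how many animals they represent. Of 10048 genes tested, 968 (9.63%) were higher and 908 (9.04%) lower in gamma barcodes, 18.7% in all. Scaling by library size alone moved the median log2 fold change of all genes from 0.00 to 0.19 and the split to 2174 higher and 546 lower, so small differences below are relative to that choice of scale.

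Tspan8, a tetraspanin of the cell membrane, was at 1496, 1016, 1028 and 943 CPM in gamma barcodes, in the order of control, early, late and intervention. In alpha barcodes it was at 40.5, 31.1, 45.8 and 47.2 CPM, so the classes were far apart in all 4 libraries. The log2 fold change was 4.62 ± 0.12 (SE; edgeR adjusted p = 2.1e-15). Thinned to 2000 UMIs per barcode, Tspan8 was seen in 68.3% to 89.5% of gamma barcodes and in 3.33% to 6.30% of alpha barcodes, against 1.41% to 3.16% of endothelial barcodes. The unthinned shares were 88.4% to 94.9%, 14.8% to 22% and 4.71% to 14.6%, at median depths of 5992 to 14047, 7278 to 17311 and 3802 to 9228 UMIs outside the genes set aside. Tspan8 was also higher in gamma than in delta barcodes, by 1.19, and than in beta barcodes, by 5.97 on the log2 scale (edgeR adjusted p = 1.3e-11 and 7.9e-09).

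Folr1, a folate receptor, was at 820, 531, 416 and 605 CPM in gamma barcodes and at 54.9 to 65.1 CPM in alpha barcodes. Its log2 fold change was 3.15 ± 0.11 against alpha, and it also exceeded delta barcodes by 1.10 and beta barcodes by 3.87 (edgeR adjusted p at most 1.3e-10 against alpha and delta and 2.6e-09 against beta). Cd9, another tetraspanin, was at 317, 607, 252 and 546 CPM in gamma barcodes and 41.5 to 139 CPM in alpha barcodes. It was at a mean of 7.43 ± 4.71 CPM (SD, 4 libraries) in delta and 15.8 ± 7.38 CPM in beta barcodes. Hspb1, a small heat shock protein, was 3.20 ± 0.09 higher on the log2 scale than in alpha barcodes, and Fxyd3, a regulator of the sodium pump, 2.82 ± 0.10.

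Hadh, Sult1d1, Gstm1 and Dio1, which encode enzymes, were among the 12 genes furthest above alpha. Hadh, an enzyme of fatty acid oxidation that restrains insulin release in beta cells, was at 202 to 295 CPM in gamma and 13.4 to 39.4 CPM in alpha barcodes, a log2 fold change of 2.93 ± 0.18. Against delta and beta barcodes its log2 fold changes were -0.92 and -1.34. Sult1d1, a sulfotransferase, rose by 2.73 ± 0.17 over alpha, Gstm1, a glutathione transferase, by 2.51 ± 0.14 and Dio1, a thyroid hormone deiodinase, by 1.92 ± 0.17. S100a10, an annexin partner, and Gsn, the actin-severing protein gelsolin, were higher by 2.95 ± 0.14 and 2.19 ± 0.12. For Gsn, 1 barcode gave 52.7% of the gamma UMIs in the early and 48.5% in the late library. That share was 7.69% in normal control and 8% in the intervention library. Nkx6-1, a homeodomain factor best known from beta cells, completed the 12. S100a10, Hadh and Dio1 were lower in gamma than in delta barcodes, opposite to their direction against alpha.

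Of 18 listed alpha genes 14 were tested, 9 were lower and 3 higher, beside 9.04% and 9.63% of all genes. Their median log2 fold change was -1.98. Ttr, the thyroxine carrier transthyretin, fell by 3.88 ± 0.04 but remained abundant, at 3875 to 5583 CPM in gamma against 48159 to 68352 CPM in alpha barcodes. Ttr was still higher in gamma than in delta barcodes, by 3.70 on the log2 scale. In the control, early, late and intervention libraries 1 barcode gave 12.3%, 19.8%, 37.8% and 9.97% of the gamma Ttr UMIs. Barcodes outside the 4 hormone classes held 4567, 3586, 2063 and 12209 CPM.

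Transporters followed. Slc30a8, which loads zinc into secretory granules, was at 63.1 to 130 CPM in gamma and 701 to 937 CPM in alpha barcodes (log2 fold change -3.34 ± 0.11). Slc38a5, an amino acid transporter of alpha cells, was at 4.24 to 59.1 CPM in gamma and 140 to 372 CPM in alpha barcodes (-3.39 ± 0.20). Oxtr, the oxytocin receptor, was at 11.1 to 16.2 CPM in gamma, with log2 fold changes of -3.07 against alpha and -2.59 against delta barcodes. Irx1, Upk3a, Ang, Wnk3, Higd1a, Map3k15 and Cryba2 were also among the 12, with log2 fold changes between -3.54 and -2.43. All 24 genes chosen this way differed in the same direction in each of the 4 libraries, which the choice of genes required.

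**Figure D3:**
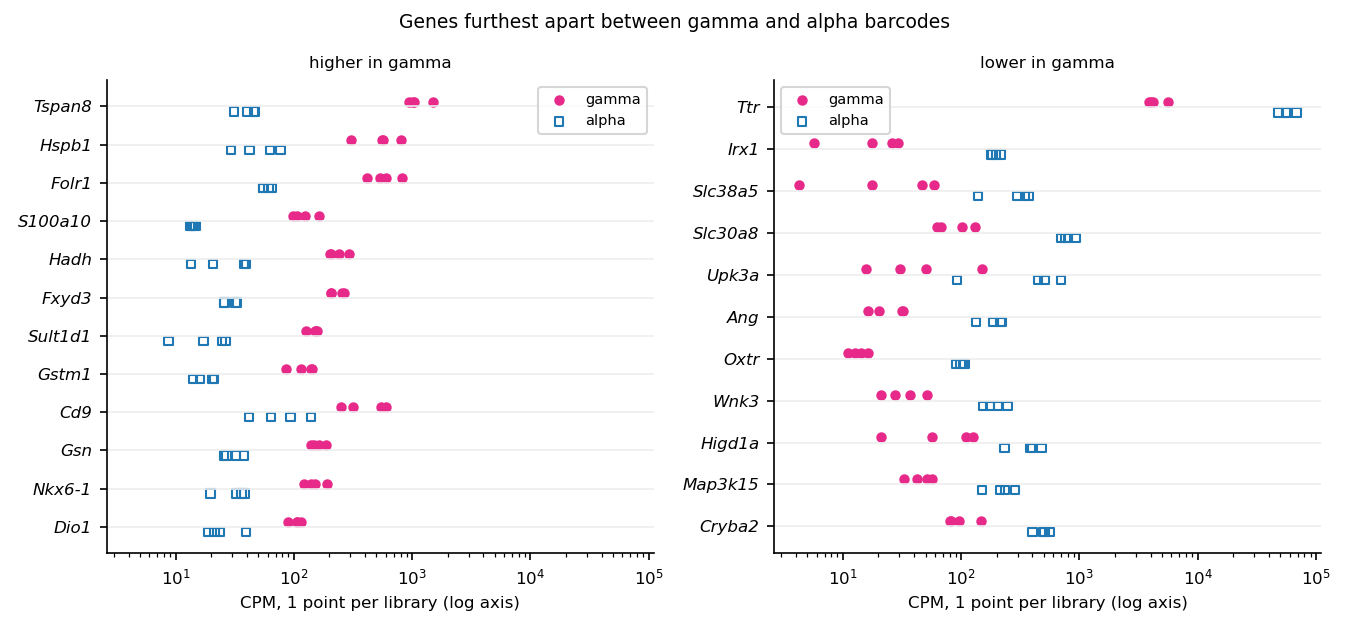
CPM on a log axis of the 12 genes furthest above and 11 of the 12 furthest below alpha barcodes, with 1 filled circle per library for gamma and 1 open square per library for alpha. In each gene the 4 gamma points lie on 1 side of the alpha point of the same library; Tspan8 at 943 to 1496 CPM against 31.1 to 47.2 CPM is the widest gap on the left.

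Islet transcription factors divided evenly. Of 33 listed, 27 were tested, 8 were higher and 8 lower in gamma than in alpha barcodes, beside 9.63% and 9.04% of all genes. Their median log2 fold change was -0.10 against 0.00 over all genes. With library-size scaling alone the split was 11 higher and 5 lower. The Iroquois factors of alpha cells were among the lower ones. Irx1 was at 5.66 to 29.1 CPM against 178 to 218 CPM in alpha barcodes and Irx2 at 36.9 to 48.5 CPM against 182 to 222 CPM. Both were above their delta and beta levels, where Irx1 averaged 0.730 CPM in beta and Irx2 was 2.95 lower on the log2 scale in delta than in gamma barcodes. Irx1 did not enter the test against delta. Its gamma level rested on 4, 14, 18 and 14 UMIs in the control, early, late and intervention libraries, from 2, 12, 9 and 7 barcodes.

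Beta-cell factors differed among themselves. Nkx6-1 was at 189, 121, 139 and 151 CPM in gamma, 19.7 to 38.4 CPM in alpha and a mean of 335 CPM in beta barcodes. It exceeded alpha by 2.10 ± 0.11 and delta by 3.58 and had a log2 fold change of -1.17 against beta (edgeR adjusted p = 7.2e-11, 5.1e-12 and 0.00010). Pdx1, the pancreas and duodenum homeobox factor, was at 35.3 to 51.7 CPM in gamma, 2.28 ± 0.23 above alpha but with log2 fold changes of -1.87 against delta and -2.08 against beta. Mafa, the Maf factor of mature beta cells, was at 0 to 12.7 CPM in gamma and 32.6 to 1039 CPM in beta barcodes. Hhex, the delta-cell factor, was 1.27 ± 0.31 above alpha, with a log2 fold change of -4.64 against delta.

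Of the other factors, Pax6 was 0.38 ± 0.08 and Meis2 0.40 ± 0.08 above alpha. Glis3 was 1.01 ± 0.20 and Mlxipl, which encodes the glucose-responsive factor ChREBP, 1.78 ± 0.24. Neurod1 (-0.36 ± 0.09), Rfx6 (-0.55 ± 0.18), Prox1 (-0.69 ± 0.10), Myt1 (-0.94 ± 0.21) and Etv1 (-0.23 ± 0.07) were lower. Isl1, Nkx2-2 and Foxa2 had log2 fold changes of 0.04, 0.02 and 0.12 and did not pass the test. The serotonergic factor Fev did not pass against alpha (-0.12 ± 0.14) and was 5.81 above beta.

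**Figure D4:**
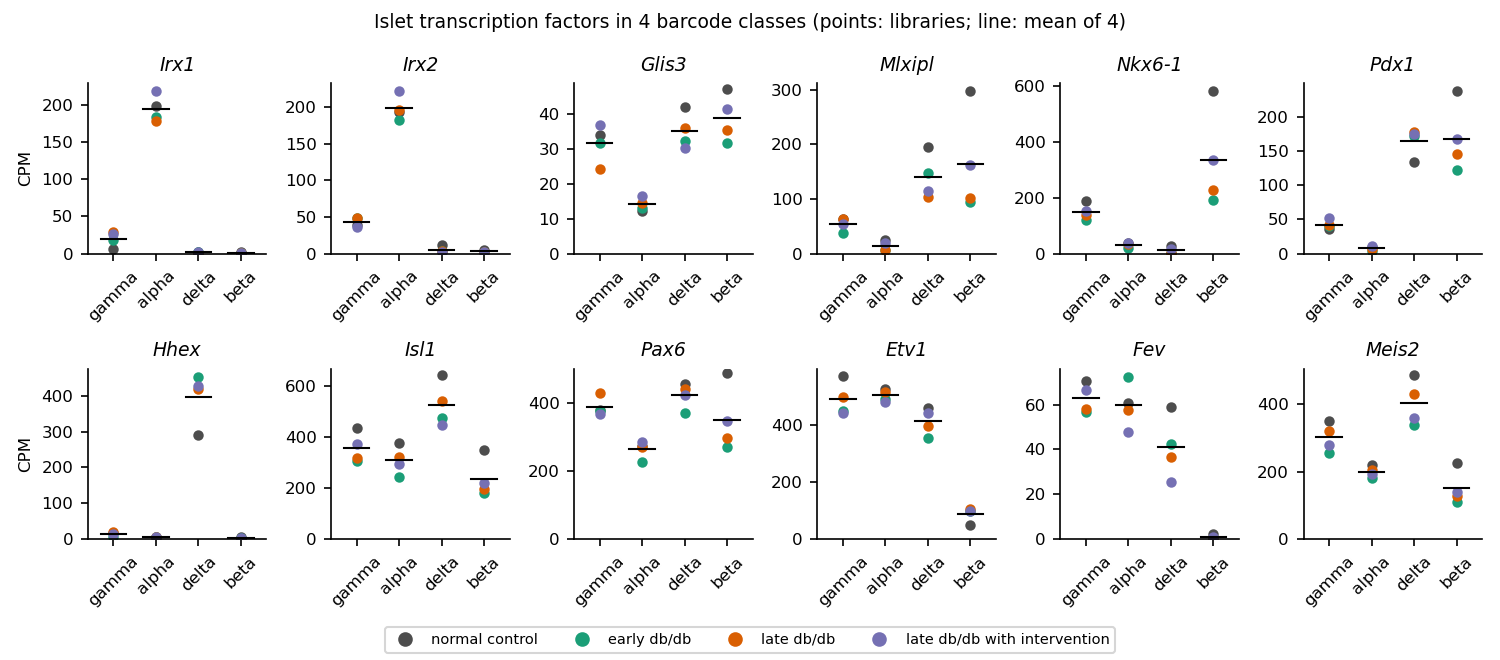
CPM of 12 islet transcription factors in gamma, alpha, delta and beta barcodes, 1 point per library and a line at the mean of the 4 libraries. Gamma barcodes have less Irx1 (5.66 to 29.1 CPM) and Irx2 (36.9 to 48.5 CPM) than alpha barcodes and hold Nkx6-1 at a level between alpha and beta.

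Against delta barcodes 1064 genes were higher and 1092 lower in gamma, 23.6% of 9138 tested, and against beta barcodes 1548 and 2031, 27.3% of 13119. These background shares are above the 18.7% against alpha. The number of barcodes and the depth behind the 3 reference classes differ, so the counts do not rank their likeness to gamma.

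Genes of hormone processing and the secretory granule were all expressed. All 19 listed were tested, 6 were higher and 7 lower than in alpha barcodes, with a median log2 fold change of 0.06. Among the prohormone convertases, Pcsk2 was abundant, at 4777, 3815, 4177 and 4266 CPM in gamma and 5169 to 6066 CPM in alpha barcodes (log2 fold change -0.53 ± 0.05). Pcsk1, the convertase typical of beta cells, was at 46.9 to 84.9 CPM in gamma and 4.06 to 26.7 CPM in alpha barcodes (2.30 ± 0.25), with a log2 fold change of -2.94 against beta. The granins split, as Chgb rose by 0.92 ± 0.08 and Scg2 by 0.69 ± 0.12 while Chga fell by 0.57 ± 0.07. Chga was at 5585, 8360, 9302 and 10087 CPM in gamma barcodes and 9845, 10670, 10541 and 11641 CPM in alpha barcodes, so the gap between classes was widest in normal control. Of 28 docking and exocytosis genes, 22 were tested. Of these 5 were higher (Rab3a, Rab3b, Rab3d, Syt4 and Syt13) and 3 lower, Syt1 and Syt5 among them. Over all genes tested against alpha, 9.63% were higher and 9.04% lower. Rab3b, a vesicle GTPase, was 1.22 ± 0.11 above alpha and Syt5, a calcium sensor of vesicles, fell by 0.88 ± 0.15.

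Receptors were low, and 16 of 36 listed and measured genes entered the test. Of these 6 were higher and 5 lower than in alpha barcodes, beside 9.63% and 9.04% of all genes tested. Chrm3, the muscarinic acetylcholine receptor through which the vagus acts on islet cells, was at 25.4, 29.0, 14.6 and 16.6 CPM in gamma and 0.560 to 0.778 CPM in alpha barcodes, with no overlap. The log2 fold change was 4.86 ± 0.36 (edgeR adjusted p = 1.2e-08). Chrm3 was also 3.15 above delta, while against beta the difference was 0.09 ± 0.23 and did not pass. Galr1, a galanin receptor, was 2.92 ± 0.48 above alpha at 6.31 to 12.7 CPM, Prlr, the prolactin receptor, 1.26 ± 0.33, Gipr, the receptor of the incretin GIP, 0.87 ± 0.26, Igf1r 0.65 ± 0.20 and Ffar4, a long-chain fatty acid receptor, 0.33 ± 0.11. Lower than in alpha were Adrb1 (-2.63 ± 0.38), Sstr2, a somatostatin receptor (-2.23 ± 0.37), Avpr1b, a vasopressin receptor (-1.83 ± 0.25), Vipr1 (-0.89 ± 0.15) and Gpr119, a lipid sensor (-0.83 ± 0.13). The pancreatic polypeptide receptor Npy4r had 0 UMIs in the gamma, alpha, delta and beta barcodes of all 4 libraries, and Lepr, the leptin receptor, had 0 in 3 of the 4 gamma sums and 1.85 CPM in the intervention library.

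Of 28 ion channel genes, 18 were tested, 6 were higher and 1 was lower, beside 9.63% and 9.04% of all genes tested. Scn3b, a sodium channel subunit, was 1.58 ± 0.22 above alpha, Kcnh2, a voltage-gated potassium channel, 0.77 ± 0.14, Cacna2d1, a calcium channel subunit, 0.61 ± 0.09, and Kcnk16, a background potassium channel of islets, 0.56 ± 0.08. The K-ATP channel subunit Abcc8 was at 696, 472, 550 and 661 CPM in gamma and 340 to 517 CPM in alpha barcodes (0.23 ± 0.07).

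A list of genes reported in human gamma cells matched only in part. Of 12 listed, 7 were tested, 3 were higher (Spock1 by 2.42 ± 0.24, Slitrk6 by 1.99 ± 0.29 and Meis2) and 2 lower (Thsd7a, with 1.41 CPM in normal control and 0 in the other 3 gamma sums against 6.02 to 16.6 CPM in alpha, and Etv1). Over all genes tested against alpha, 9.63% were higher and 9.04% lower. Against delta barcodes the log2 fold changes of Spock1 and Slitrk6 were -2.33 and -2.48.

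Of 25 endoplasmic reticulum chaperones and unfolded protein response genes, all tested, 10 were higher than in alpha barcodes, beside 9.63% of all genes tested. Without the library block 3 of the 25 were higher. The median log2 fold change was 0.32. Dnajb9, a co-chaperone induced by the unfolded protein response, was at 452, 635, 409 and 511 CPM in gamma and 193 to 319 CPM in alpha barcodes (0.90 ± 0.07). Hspa5, the chaperone BiP, rose by 0.35 ± 0.07 over alpha, with a log2 fold change of -1.11 against beta. The metallothioneins Mt1 and Mt2 were 1.08 ± 0.08 and 1.20 ± 0.12 above alpha.

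Immediate early and heat shock genes, which respond to stimulation and to tissue dissociation, were higher in gamma than in alpha barcodes in 14 of 20 tested (edgeR adjusted p; 9 with DESeq2). Without the library block these calls were lost. The median log2 fold change was 0.52, and 9.63% of all genes tested were higher. Klf2, a Krüppel-like factor, was furthest apart at 150, 266, 467 and 113 CPM in gamma and 24.1 to 108 CPM in alpha barcodes (1.81 ± 0.15).

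The same list set the libraries apart. In gamma barcodes 7 of 19 genes that entered the comparison of early db/db with normal control were at least 2-fold higher, and none was 2-fold lower. In that comparison 3933 genes entered, each with 50 CPM or more where it was higher and 50 UMIs or more over both libraries, and 5.75% of them were past 2-fold in either direction (2.62% higher and 3.13% lower). For late db/db against normal control the count was 8 of 19, beside 3.46% of 3907 genes (1.82% higher and 1.64% lower). With the intervention 12 of 18 were at least 2-fold lower than in late db/db, beside 2.74% of 3790 genes (1.24% higher and 1.50% lower). Fos was at 925 CPM in normal control, 2492 in the early library, 2298 in the late and 718 in the intervention library. The log2 ratio of Fos was 1.31 (95% interval 1.18 to 1.45) for late db/db against normal control and -1.68 (-1.84 to -1.52) for intervention against late db/db.

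Other members of the list were likewise higher in both the early and the late library than in the control and intervention libraries. Atf3, a stress-induced factor, was at 5.66, 94.6, 108 and 3.69 CPM, and Ier2 at 156, 609, 705 and 159 CPM. Hspa1a, the inducible HSP70, was at 974, 1397, 1297 and 511 CPM. Alpha barcodes of the same libraries moved in the same direction with fewer genes past 2-fold, 5 of 18 for early db/db and 1 of 17 for late db/db against normal control, and 9 of 17 lower for intervention against late db/db. Summed over the 22 listed genes, the median gamma barcode held 11495, 19059, 16866 and 9574 CPM and the median alpha barcode 9062, 12202, 9847 and 5823 CPM. The median delta barcode held 7696, 12675, 14719 and 6271 CPM and the median beta barcode 5333, 5749, 5972 and 4063 CPM. The pattern was thus not particular to gamma barcodes. The median mitochondrial share of gamma barcodes was 2.94%, 2.37%, 2.74% and 3.03%. Handling of the tissue was not recorded per library in the labels, and its part in these values was not tested.

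**Figure D5:**
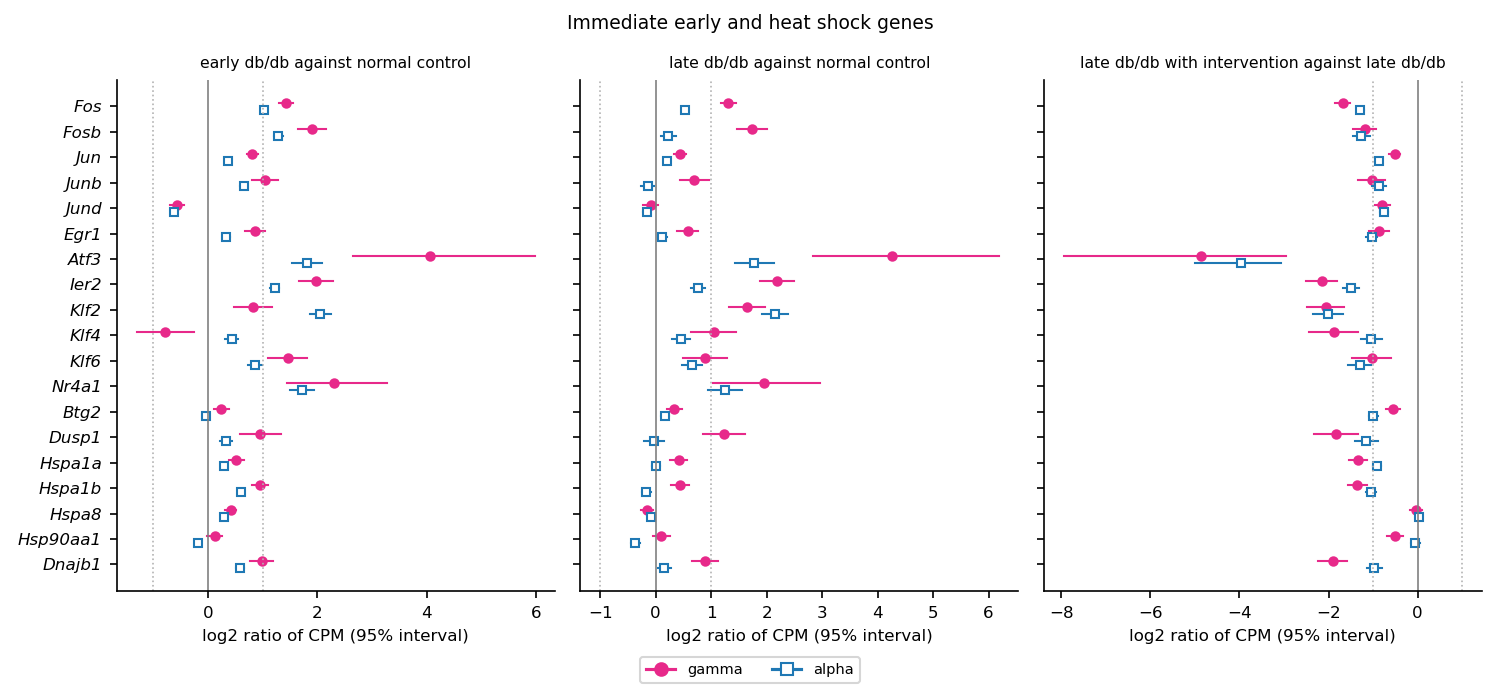
Log2 ratio of CPM of the immediate early and heat shock genes in gamma (circles) and alpha barcodes (squares) for 3 comparisons, with exact 95% counting intervals; dotted lines mark 2-fold. Most genes lie to the right of 0 in early and late db/db against normal control and to the left of 0 for intervention against late db/db, where 12 of 18 pass 2-fold in gamma barcodes.

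In gamma barcodes 71 genes passed 2-fold upwards and 64 downwards between late db/db and normal control, and 103 and 123 between early db/db and normal control. In alpha barcodes of the same libraries 2.55% and 4.58% of the genes were past 2-fold. Several of the genes furthest apart were near 0 either in normal control or in the other 3 libraries, in gamma and alpha barcodes alike. Rnaset2b was at 109 CPM in the gamma barcodes of normal control and at 1.26, 0 and 0 CPM in the early, late and intervention libraries. In alpha barcodes it was at 49.7 CPM in normal control and at most 0.420 CPM in the others. Tmsb15b1, a thymosin, was at 119 CPM in normal control and at 0, 3.23 and 0 CPM in the others. In the opposite direction Gm10260 was at 0 CPM in normal control and 75.7, 199 and 181 CPM in the others, and 6330403K07Rik at 1.41 CPM against 230, 175 and 279 CPM. These genes include near-identical copies and pseudogenes, whose counts depend on how reads were assigned. In these genes the library labelled early db/db lay with the late db/db libraries. They are shown because of that pattern, so this is no check of the label. Strain and disease cannot be told apart here.

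A few protein-coding genes were lower in the gamma barcodes of all 3 db/db libraries without resting on 1 barcode, and others in some of them. Tmem59l, a membrane protein of the secretory pathway, was at 229 CPM in normal control and 42.9, 40.4 and 46.1 CPM in the early, late and intervention libraries, with a log2 ratio of -2.42 (-3.00 to -1.88) for early db/db. In alpha barcodes that ratio was -1.49. Olfm3, a secreted olfactomedin, was at 77.8 CPM and 3.79, 8.08 and 11.1 CPM, and was seen in 33 of 59, 3 of 95, 4 of 47 and 3 of 88 gamma barcodes. Mapk15, a protein kinase, was at 103 CPM against 15.1, 22.6 and 33.2 CPM. Neither fall was particular to gamma barcodes. Olfm3 was at 69.9 CPM against 7.91, 14.3 and 16.5 CPM in delta barcodes. Mapk15 was at 105 CPM against 19.6, 9.85 and 30.9 CPM in alpha barcodes. In delta barcodes Mapk15 was at 110 CPM against 25.9, 14.3 and 28.4 CPM, and in beta barcodes at 57.3 CPM against 2.58, 3.29 and 6.56 CPM. Ddc, the enzyme that makes dopamine and serotonin from their precursors, was at 194, 119, 64.7 and 102 CPM, a log2 ratio of -1.58 (-2.13 to -1.06) in late db/db against -0.68 in alpha barcodes. St18, a zinc finger factor of endocrine cells, was at 126, 58.0, 56.6 and 97.8 CPM, a log2 ratio of -1.12 (-1.66 to -0.59) for early and -1.15 (-1.76 to -0.57) for late db/db.

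Among antigen presentation genes, B2m, the light chain of MHC class I, was at 32.5 CPM in normal control and 110 and 116 CPM in early and late db/db gamma barcodes. It was at 44.3 CPM with the intervention. H2-D1, a class I heavy chain, was at 550, 1224, 1198 and 1102 CPM, while H2-K1 went from 550 CPM to 228, 218 and 129 CPM. The heavy chain genes are near-identical and differ between strains, so their separate values are uncertain. Alpha barcodes had log2 ratios of 1.36 for H2-D1 and -1.49 for H2-K1 in late db/db against normal control, close to 1.12 and -1.33 in gamma.

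Some genes of exocytosis were lower in early db/db, at 70 days, than in normal control, at 98 days. Syt7, a calcium sensor of granule fusion, was at 129 CPM in early db/db and 304 CPM in normal control gamma barcodes, a log2 ratio of -1.24 (-1.59 to -0.89). Cplx2, a complexin, was at 141 and 344 CPM (-1.28, -1.62 to -0.95), and Syt11 at 21.4 and 55.1 CPM. These 3 of 16 listed genes were past 2-fold, none in the other direction, beside 3.13% lower and 2.62% higher of all genes that entered. Alpha barcodes had -0.80 for Syt7, -1.15 for Cplx2 and -1.44 for Syt11. Gm42418, an RNA that overlaps ribosomal sequence, and Lars2 were also low in early db/db, at 807 and 47.9 CPM against 5819 and 192 CPM in normal control, and the same held in alpha barcodes with ratios of -2.95 and -2.15.

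Between late and early db/db 63 genes passed 2-fold upwards (1.64%) and 77 downwards (2.01%), 3.65% of 3831, beside 1.49% in alpha barcodes. The lower genes furthest apart were mostly digestive enzymes of acinar cells. The 8 acinar markers summed to 147 CPM in the gamma barcodes of normal control, 8889 in the early library, 724 in the late and 251 in the intervention library, and 88 of 95 early db/db gamma barcodes held at least 5 of these UMIs. Alpha barcodes held 160, 6403, 490 and 843 CPM, and barcodes outside the 4 hormone classes 1700, 41293, 5266 and 4453 CPM. Ctrb1, chymotrypsinogen, was 7.11 (6.45 to 7.87) higher on the log2 scale in early db/db than in normal control gamma barcodes, beside 5.73 in alpha. The acinar genes were thus high in gamma, alpha and other barcodes of that library. Their part in the comparisons with early db/db was not tested. The late db/db genes Ccl21a, C3, Ccl7, Cxcl12 and Apoe came to 93.7% to 100% from 1 gamma barcode each, and Cd74, an MHC class II chaperone, to 53.0%.

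Markers of other cell types were otherwise low in gamma barcodes. The 7 endothelial markers summed to 16.2 to 53.0 CPM, with 1 to 4 of them at 0, and the 7 macrophage markers to 90.8 to 131 CPM, with 3 to 5 at 0. The B cell markers were at 2.83, 7.57, 176 and 16.6 CPM and the T and NK cell markers at 1.41, 2.52, 144 and 0 CPM, and their part in the late db/db values was not tested. In late db/db 1 gamma barcode gave 49.5% of the B cell marker UMIs and 1 gave 40.4% of the T and NK marker UMIs. Only 2 and 3 of the 47 gamma barcodes held at least 5 such UMIs. The 8 mesenchymal markers reached 418 CPM in early and 160 CPM in late db/db, of which 94.9% and 89.9% came from 1 barcode. Duct markers were higher, at 1639, 1337, 933 and 1709 CPM against 410, 869, 653 and 821 CPM in alpha barcodes. They came from Spp1, which encodes osteopontin (log2 fold change 1.58 ± 0.40), Krt7 (0.60 ± 0.10) and Krt18 (0.46 ± 0.10), while Krt7 was at 382 to 545 CPM in beta barcodes. The highest doublet scores marked 7, 7, 5 and 8 of the gamma barcodes, 11.9%, 7.37%, 10.6% and 9.09%, beside 3.69% to 5.05% of all barcodes.

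With the intervention 47 genes passed 2-fold upwards and 57 downwards against late db/db, beside 1.82% in either direction in alpha barcodes. Beyond the early response genes, Cd9 was at 546 CPM with the intervention and 252 CPM in late db/db, a log2 ratio of 1.11 (0.83 to 1.40) beside 1.12 in alpha barcodes. Krt7 was at 504 and 241 CPM (1.06, 0.77 to 1.36). Prlr was at 64.6 and 27.5 CPM (1.23, 0.36 to 2.16). Cck, cholecystokinin, was at 1.41, 12.6, 16.2 and 105 CPM in gamma barcodes, in the order of control, early, late and intervention. Alpha barcodes held 0.615, 8.40, 12.5 and 78.3 CPM of Cck and beta barcodes 0.0582, 2031, 1418 and 1103 CPM, so the gamma level was near that of alpha. Hbb-bs, a haemoglobin gene, was at 321 CPM in gamma barcodes with the intervention and 8.08 CPM in late db/db, and was seen in 77 of 88 barcodes. It was not particular to gamma barcodes. With the intervention alpha, delta and beta barcodes held 266, 972 and 354 CPM of it and barcodes outside the 4 hormone classes 2062 CPM. In late db/db these held 9.09, 3.76, 347 and 14.5 CPM.

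Against normal control the intervention library had 44 genes past 2-fold upwards (1.12%) and 53 downwards (1.34%) in gamma barcodes, 2.46% of 3943, beside 2.25% in alpha barcodes. It had the fewest such genes of the comparisons with normal control. Most of the immediate early genes lay near the control level, with 1 of 17 past 2-fold (Dnajb1, a co-chaperone of HSP70, lower) and a median log2 ratio of -0.36. Cdkn1a, the cell cycle inhibitor p21, was at 107 CPM with the intervention and 8.48, 31.5 and 25.9 CPM in normal control, early db/db and late db/db, from 16 of 88 gamma barcodes. Dapl1 was at 99.7 CPM with the intervention and 12.7 CPM in normal control, in 36 of 88 and 8 of 59 barcodes, and beta barcodes held 449 to 1006 CPM of it. Upk3a was at 150 and 15.6 CPM, with 54.3% of its intervention UMIs from 1 barcode.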

How the data were processed

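Single-cell libraries of mouse islets (10x 3′ chemistry, 1 library per group) were deposited by the authors as gene-by-barcode tables of UMI counts, made with Cell Ranger on mm10, per the submitters' processing notes, which also name CASAVA 1.8 and Seurat; the software version in the matrix header is 3.0.0, per the file headers. From these counts, barcodes were kept and classed by the limits in the text, with alpha barcodes at 10% Gcg or more, delta at 10% Sst or more and beta at 30% Ins1 and Ins2 or more. The members and gene lists were chosen with earlier results of these data known. UMIs were summed per library and class, without mitochondrial genes and 7 hormone genes, and compared by edgeR 4.0.16 (R 4.3.3) on 8 sums with the library as a block, TMM scaling, a filter on low counts and Benjamini-Hochberg adjustment at 0.05. The 12 genes named on each side had the largest fold changes among genes past that threshold with a mean of at least 100 CPM in the higher class and the same direction in all 4 libraries; between libraries, up to 8 called genes on each side with the interval bound farthest from 0 were named, and members of the lists. Some genes are not reported here. Between libraries, ratios of CPM have exact conditional binomial 95% intervals, and a gene entered at 50 CPM in the higher library and 50 UMIs over both libraries; where a library had 0 UMIs a floor of 3 was used. Shares of barcodes with a UMI were compared after thinning to 2000 UMIs. Doublets were not removed in the main values: Scrublet (scanpy 1.11.5) called only 2 barcodes with the intervention, so the highest scores, 0.8% per 1000 barcodes, were removed as an alternative. The scripts were tested on simulated data. DESeq2 1.42.0 and other alternatives are given in the closing section. Whether barcodes of a library come from several animals is not stated in the labels, and p-values measure only the spread between libraries.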

Additional observations from a re-analysis of the deposited data

Results flagged for a closer look

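In 11 cases a gene was at least 2-fold apart between libraries in gamma barcodes while its ratio in alpha barcodes lay on the other side of 0; the difference between the classes was not tested. All values are log2 ratios of CPM. In 5 of them most gamma UMIs came from 1 barcode. These were Apoe for late against early db/db (3.812, alpha -0.53, 93.7% from 1 barcode), Stmn1 for intervention against normal control (-2.812, alpha 0.85, 85.5%), and for early db/db against normal control the mesenchymal genes Col3a1 (4.46, alpha -0.88, 95.9%), Col1a2 (1.175, alpha -0.41, 88.4%) and Dcn (5.608, alpha -1.34, 98.8%).

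The other 6 were spread over more barcodes, though 1 barcode still gave 3.45% (Hbb-bs) to 37.7% (Fam159b) of the gamma UMIs in the higher library. That share was 34.9% for Id3 and 24.1% for Cdkn1a. Id3, an inhibitor of basic helix-loop-helix factors, was 4.733 higher in late than early db/db (alpha -0.51), from 8 of 47 gamma barcodes. With the intervention against late db/db, Cdkn1a was 2.049 higher (alpha -0.71) and Dapl1 1.946 higher (alpha -0.78). Fam159b, a listed delta gene, had a ratio of -1.216 (alpha 0.93). Hbb-bs was 5.02 higher for intervention against normal control (alpha -0.20), where alpha barcodes of normal control held 306 CPM and gamma barcodes 9.90 CPM. Delta barcodes held 4.23 CPM of Hbb-bs in normal control and 972 CPM with the intervention, and beta barcodes 9.96 and 354 CPM. Barcodes outside the 4 hormone classes held 2290 and 2062 CPM. In early db/db against normal control, Wnk3, a gene of alpha barcodes at a low level in gamma barcodes, was 1.286 (alpha -0.43).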

How the results depend on the processing

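The 24 named genes kept direction and call against alpha barcodes in all 312 values under the alternatives. With the listed genes added, 1636 values kept their call and 263 kept direction without it, 80 of them without the library block and 33 with DESeq2. Counts moved more. Against alpha (968 higher, 908 lower), DESeq2 gave 587 and 526, library size alone 2174 and 546, and no library block 397 and 393. Against delta (1064 and 1092), DESeq2 gave 490 and 538 and no library block 508 and 725, and library size alone 763 and 1405. Against beta (1548 and 2031), library size alone gave 1833 and 1493. Leaving out 1 library gave 690 to 898 higher and 687 to 836 lower against alpha, 795 to 952 and 910 to 995 against delta, and 914 to 1880 and 1389 to 2489 against beta; beta's higher count was 967 without early db/db and 914 without the intervention. Only libraries, not replicates within a group, could be left out.

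Counts between libraries depended on the rules. With all UMIs as denominator, late against control had 41 higher and 10 lower, early against control 45 and 43, late against early 37 and 26, intervention against late 3 and 44, and intervention against control 13 and 12. At 100 CPM these were 45 and 16, 58 and 37, 22 and 33, 13 and 40, and 20 and 13. TMM gave 82 and 41 for late and 132 and 84 for early against control. Without doublet-scored barcodes, late had 46 higher against control and 39 against early. Without each gene's highest barcode (chosen after seeing the data), late against early had 38 higher. The mean of single-barcode CPM gave 102 lower for late against control, 73 higher for intervention against late and 74 against control. Of named ratios 933 stayed within their interval, 97 moved and 9 turned: without the highest barcode, Col1a2 early against control -1.30, Mgp late against early 1.36 and C3 intervention against late 0.51; without doublet-scored barcodes, C3 0.67, Apoe late against early -0.26 and Cela1 intervention against control 0.066; with Gcg and Sst under 1% (also chosen after seeing the data), Cela1 0.033 and Fam159b 1.09 for early and 1.46 for intervention against control. The cause was not tested. No paired analysis was possible because each group has 1 library. Shares of gamma barcodes among the 4 hormone classes stayed within their intervals. Of all barcodes with at least 5000 UMIs, the share was 1.16% in the late and 2.48% in the early library, outside the intervals of 0.746% and 1.98%.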
